A study of Mus musculus with 12 samples.

Results

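The cytosolic ribosomal proteins are the proteins that join ribosomal RNA in the large and small subunits of the ribosome. They were taken by symbol: names starting with Rpl or Rps and a number, plus Rplp0, Rplp1, Rplp2 and Rpsa, without S6 kinases, names with -ps, Rik names and like-type paralogs, and with a level of 1 TPM or more in 3 or more libraries. This gave 82 of 55421 listed genes, all 82 of them among the 14510 genes tested. Of these, 77 encode a ribosomal protein, 46 of the large and 31 of the small subunit. The other 5 were Rps27rt, Rpl37rt, Rps3a2 and Rps3a3, which are gene copies, and Rps19bp1, a protein that binds Rps19. The material was epithelium of mouse jejunum, profiled in bulk by RNA-seq. The 4 groups were Fzd5KO at day 1, Fzd5KO at day 3, Ctrl at day 1 and Ctrl at day 3, with 3 libraries each. Fzd5 encodes Frizzled 5, a Wnt receptor. The labels give neither the allele, the Cre driver, the strain, the age nor the event from which days were counted, and do not tie replicates to different animals, so every p-value reflects library-to-library spread that may be technical.

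Each ribosome carries a single copy of nearly every ribosomal protein, and the proteins are made in matched amounts from genes scattered over the genome. Their mRNAs begin with a C followed by a run of pyrimidines, the TOP motif, through which the mTOR pathway and the binding protein Larp1 control their translation. In the intestine, ribosome production is known to be high in the dividing cells of the crypt and lower in the differentiated cells of the villus. The deposited unit, TPM, is a transcript abundance divided by transcript length and set to an equal total per library, so levels of different genes can be set side by side. Changes are differences of log2(TPM + 1), given with the standard error (SE) of a limma fit, and a gene was called at a Benjamini-Hochberg adjusted p under 0.05 over all 14510 genes tested.

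The libraries labelled Fzd5KO kept a part of the Fzd5 signal. Fzd5 stood at 32.7 ± 0.694 TPM in Fzd5KO and 46.6 ± 2.94 TPM in Ctrl at day 1, and at 38.6 ± 0.969 TPM in Fzd5KO and 64.8 ± 3.95 TPM in Ctrl at day 3 (SD, n = 3 each). It was lower in Fzd5KO on both days, by limma with an adjusted p of 0.000151 at day 1 and 4.42e-07 at day 3. All 6 epithelial markers (Epcam, Cdh1, Vil1, Krt8, Krt19 and Krt20) were above 0 in every group. At day 1 they summed to 4985 to 5123 TPM in Fzd5KO and 4756 to 4885 TPM in Ctrl. At day 3 the sums were 7170 to 7338 TPM in Fzd5KO and 4695 to 4882 TPM in Ctrl, without overlap on either day. Depth is unknown from TPM. The number of genes above 0 ranged over libraries from 21506 to 24467.

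Sequences around the transcription start are shown for 8 ribosomal protein genes, because the TOP motif lies there and because these genes span the changes reported below. The set of RefSeq (GRCm38.p6) starts used here covered 57 of the 77 genes, in 67 windows. Each line runs 5′ to 3′ on the gene's strand, from 15 bases before the RefSeq start through the 15 bases that begin with it, and capitals mark the longest run of C and T.
Rps26, chr10:128626492-128626521, minus strand: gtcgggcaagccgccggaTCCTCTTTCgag
Rps4x, chrX:102189377-102189406, minus strand: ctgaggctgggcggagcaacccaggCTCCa
Rpl12, chr2:32961697-32961726, plus strand: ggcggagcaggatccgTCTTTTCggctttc
Rpl36a, chrX:134585639-134585668, plus strand: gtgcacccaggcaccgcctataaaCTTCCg
Rps6, chr4:86857353-86857382, minus strand: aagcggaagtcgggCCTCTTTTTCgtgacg
Rpl35, chr2:39005117-39005146, minus strand: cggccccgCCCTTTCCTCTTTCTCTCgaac
Rpl27, chr11:101442230-101442259, plus strand: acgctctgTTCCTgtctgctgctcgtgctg
Rpl10, chrX:74270801-74270830, plus strand: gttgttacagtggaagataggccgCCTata
A run of at least 8 pyrimidines was found in 38.81% of the 67 ribosomal protein windows and in 12% of all 32851 windows in the table. The letters CTTCCG, searched on both strands from 250 bases before to 50 after the start, were in 62.69% of the ribosomal protein promoters and in 16.85% of all promoters. A match is a description of the sequence only. Starts can differ between annotations.

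At day 1 the ribosomal proteins took up nearly the same share of all TPM in both genotypes, and at day 3 the genotypes lay apart. The 82 genes summed to 32848, 32630 and 32627 TPM in Fzd5KO day 1 and to 32646, 32651 and 31213 TPM in Ctrl day 1. They summed to 26069, 27021 and 26683 TPM in Fzd5KO day 3 and to 42084, 42136 and 40092 TPM in Ctrl day 3. The groups overlapped at day 1 and did not overlap at day 3, where every Fzd5KO library was also below every day 1 library and every Ctrl library above every day 1 library. The overlap at day 1 depended on scaling: with TPM rescaled without mitochondrial and the 20 most abundant genes, the day 1 sums were 63012 to 63234 TPM in Fzd5KO and 56960.2 to 57574 TPM in Ctrl, without overlap. As a share of all TPM this was 2.66% on average in Fzd5KO day 3 and 4.14% in Ctrl day 3, against 3.27% in Fzd5KO day 1 and 3.22% in Ctrl day 1. The median ribosomal protein gene stood at 322 TPM in Fzd5KO day 3 and 504 TPM in Ctrl day 3. The ratio of large to small subunit mRNA moved little, averaging 1.49 in Fzd5KO day 3 and 1.46 in Ctrl day 3. The day 3 libraries still did not overlap, with 1.478 to 1.497 in Fzd5KO and 1.439 to 1.472 in Ctrl.

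**Figure D1:**
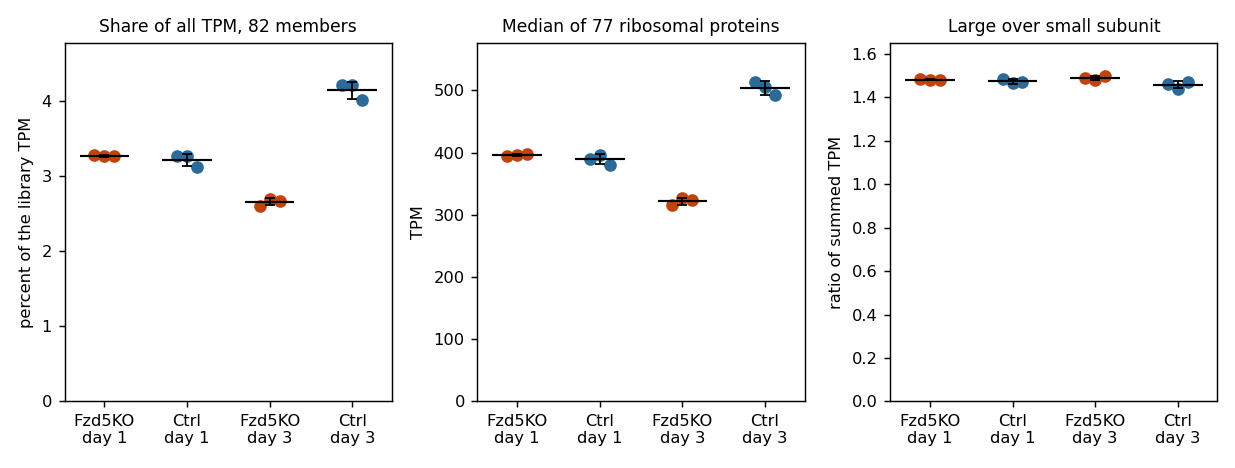
Share of the library TPM taken by the 82 genes (left, percent), median TPM of the 77 ribosomal protein genes (middle) and ratio of summed large to summed small subunit TPM (right), one point per library, with the group mean (line) and SD (bar), n = 3. The Fzd5KO day 3 libraries average 2.66% and the Ctrl day 3 libraries 4.14%, without overlap. The mean subunit ratio lies between 1.46 and 1.49 in the 4 groups, and its day 3 libraries do not overlap either.

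All 77 ribosomal protein genes were lower in Fzd5KO than in Ctrl at day 3. From day 1 to day 3 their median moved by −0.31 in Fzd5KO and by 0.36 in Ctrl. By genotype at day 3, 79 of the 82 genes were called lower and 0 higher, against a background of 38.5% lower and 24.3% higher. At an unadjusted p under 0.05 the count of higher genes was also 0. The median change was −0.63, a level of 0.645 times that in Ctrl, against −0.14 for all genes tested, and 15.7% of the genes tested lay below the median of the 82. In 79 of the 82 genes all 3 Fzd5KO libraries were below all 3 Ctrl libraries, against a background of 40.8%. The large subunit had a median of −0.62 (46 of 46 lower) and the small subunit of −0.64 (31 of 31 lower). Across the 77 genes the changes lay between −0.82 and −0.24 with an SD of 0.101, a narrow band inside the distribution of all genes. Their Spearman correlation across these 77 genes was −0.08 with mean level and −0.10 with transcript length, a description over genes that share the same libraries. In bulk RNA, fewer cells with many ribosomal protein transcripts and less such RNA per cell cannot be told apart.

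**Figure D2:**
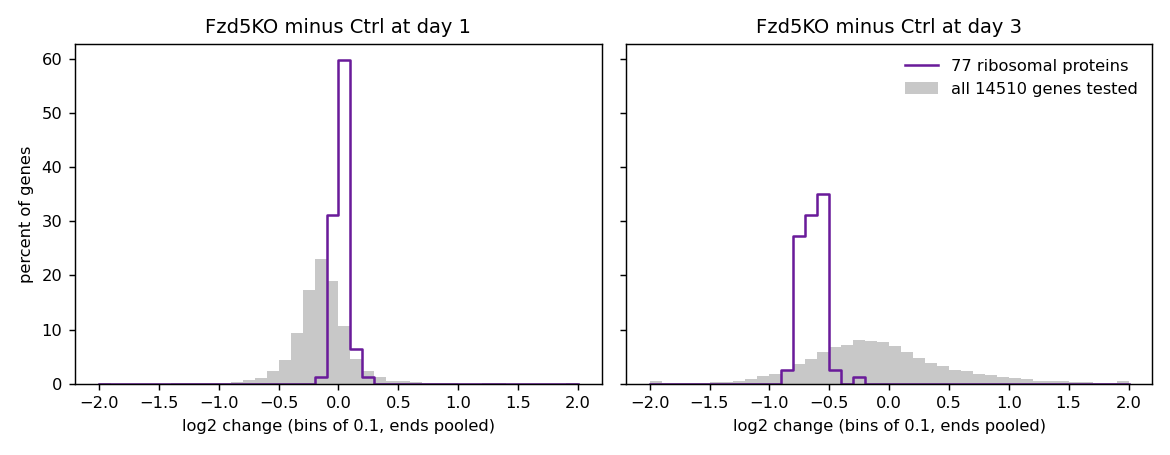
Distribution of log2 changes, Fzd5KO minus Ctrl, at day 1 (left) and day 3 (right), for all 14510 genes tested (grey bars) and the 77 ribosomal protein genes (purple line), as percent of genes in bins of 0.1. The ribosomal protein genes sit near 0 at day 1 and between −0.82 and −0.24 at day 3.

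Summed levels of the markers of most cell types examined lay apart between the genotypes too. Summed levels at day 3 were 28976 to 29934 TPM in Fzd5KO and 11940 to 12650 TPM in Ctrl for the 8 enterocyte markers. The sums were 50.3 to 52.7 TPM in Fzd5KO and 532 to 566 TPM in Ctrl for the 5 crypt stem cell markers. The 5 proliferation markers summed to 176 to 183 TPM in Fzd5KO and 320 to 335 TPM in Ctrl, and the 5 Paneth markers to 3593 to 3893 TPM in Fzd5KO and 11575 to 12364 TPM in Ctrl. The other secretory lists were lower as well, with 5269 to 5664 TPM in Fzd5KO and 8776 to 9317 TPM in Ctrl for goblet, 76.7 to 82.8 TPM in Fzd5KO and 278 to 285 TPM in Ctrl for enteroendocrine, and 7.44 to 8.78 TPM in Fzd5KO and 36.8 to 39.8 TPM in Ctrl for tuft cell markers. Among blood cell lists, the 6 T cell markers summed to 145 to 160 TPM in Fzd5KO and 38.0 to 40.9 TPM in Ctrl, B and plasma cell markers to 16.9 to 18.9 TPM in Fzd5KO and 3.42 to 5.51 TPM in Ctrl, and myeloid markers to 17.5 to 19.5 TPM in Fzd5KO and 8.35 to 10.7 TPM in Ctrl. Erythroid markers summed to 37.1 to 46.6 TPM in Fzd5KO and 133 to 144 TPM in Ctrl. Fibroblast, smooth muscle and endothelial markers summed to at most 10.4 TPM per list in any day 3 library. Mitochondrial genes took 7.03 to 7.79% of TPM in Fzd5KO and 8.37 to 9.70% in Ctrl. No marker of these lists had a group mean of 0, and the part of these cells and of the mitochondrial share in the ribosomal protein result was not tested.

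Among large subunit proteins, Rpl3, which lines the peptidyl transferase centre, had the largest difference between genotypes at day 3. It had 328, 351 and 355 TPM in Fzd5KO day 3 and 605, 593 and 606 TPM in Ctrl day 3. The libraries of the genotypes were far apart, with a change of −0.80 ± 0.0349 (SE; limma, adjusted p = 4.80e-09). Rpl12, at the base of the stalk that recruits elongation factors, had 303, 284 and 305 TPM in Fzd5KO day 3 and 523, 518 and 495 TPM in Ctrl day 3 (−0.78 ± 0.0414, limma, adjusted p = 2.45e-08). Rpl36a, which contacts tRNA leaving the ribosome, had 168, 171 and 168 TPM in Fzd5KO day 3 and 300, 292 and 279 TPM in Ctrl day 3. Its change was −0.77. These 3 genes were at or near the low end of the band. On GRCm38, Rpl3 lies at chr15:80077791-80091868 on the minus strand, and the highest gene in level, Rps2, at chr17:24718116-24721929 on the plus strand.

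Rpl5 and Rpl11, which join the 5S ribosomal RNA and can bind the p53 regulator Mdm2, were lower in Fzd5KO by unequal amounts. Rpl5 had 250, 265 and 248 TPM in Fzd5KO day 3 and 440, 434 and 424 TPM in Ctrl day 3, a change of −0.77 ± 0.0439. Rpl11 had 353, 327 and 353 TPM in Fzd5KO day 3 and 500, 497 and 466 TPM in Ctrl day 3, a change of −0.50 ± 0.0473. Neither pair of groups overlapped.

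The 3 stalk proteins, which bind elongation factors, lay near the middle of the band. Rplp0 had 552, 554 and 559 TPM in Fzd5KO day 3 and 856, 869 and 798 TPM in Ctrl day 3 (−0.60 ± 0.0394). Rplp1 changed by −0.65 and Rplp2 by −0.58, and each of the 3 had no overlap between genotypes. Other large subunit proteins with roles known in mice or cells were lower as well. Rpl22, needed for T cell development in mice, changed by −0.68. Rpl38, known from mouse mutants with skeletal patterning defects, changed by −0.52, Rpl39, at the exit tunnel, by −0.60, and Rpl41, the shortest of the proteins, by −0.52.

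The smallest difference among the 77 genes was that of Rpl27. It had 103, 96.2 and 109 TPM in Fzd5KO day 3 and 121, 115 and 130 TPM in Ctrl day 3, so the highest Fzd5KO library lay only just below the lowest Ctrl library. The change was −0.24 ± 0.0676 (limma, adjusted p = 0.0080), and with median-of-ratios scaling it was −0.10 and not called. Rpl27 was also the lowest of the 77 genes in level, with a mean of 117 TPM over all libraries. Rpl10, a protein that joins late in assembly, had 411, 457 and 420 TPM in Fzd5KO day 3 and 604, 609 and 585 TPM in Ctrl day 3 (−0.48 ± 0.0393). Rpl29, named here after its values were seen, lay between them at −0.45.

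In the small subunit the largest difference was that of Rps26, which lies at the path by which mRNA leaves the ribosome. It had 299, 341 and 303 TPM in Fzd5KO day 3 and 558, 571 and 539 TPM in Ctrl day 3 (−0.82 ± 0.0646, limma, adjusted p = 6.76e-07). Rps4x, an X-linked protein near the mRNA entry, had 240, 257 and 261 TPM in Fzd5KO day 3 and 447, 444 and 429 TPM in Ctrl day 3 (−0.80 ± 0.0399). The groups were again apart. Rps3a1 had the smallest p of the 82 genes, with 330, 331 and 337 TPM in Fzd5KO day 3 and 566, 539 and 549 TPM in Ctrl day 3 (−0.73 ± 0.0279, limma, adjusted p = 1.76e-09).

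Rps6, the substrate of the S6 kinases, had 474, 469 and 471 TPM in Fzd5KO day 3 and 776, 769 and 760 TPM in Ctrl day 3 (−0.70 ± 0.0335). Rps19 and Rps14, known from human anaemias with defective ribosomes, changed by −0.73 and −0.53. Rps3, at the mRNA entry, changed by −0.59, and Rpsa, also known as the laminin receptor precursor, by −0.63. Rps24 changed by −0.72. The highest gene in level was Rps2, at the mRNA entry, with 797, 842 and 793 TPM in Fzd5KO day 3 and 1218, 1225 and 1211 TPM in Ctrl day 3. Its change of −0.59 lay close to the median.

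**Figure D3:**
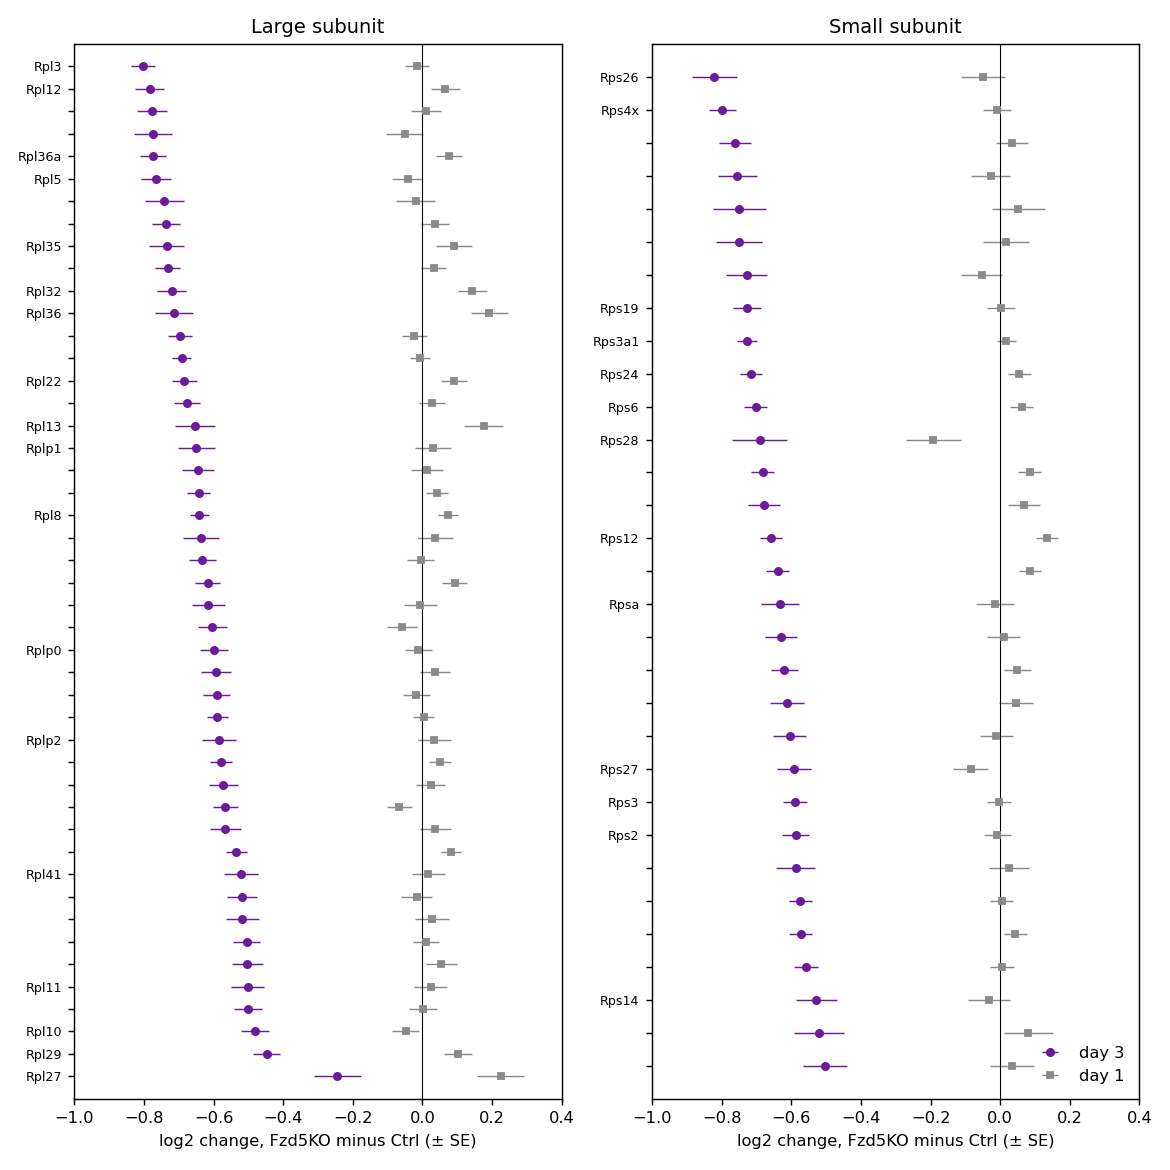
Log2 change, Fzd5KO minus Ctrl, of the 77 ribosomal protein genes at day 3 (purple circles) and day 1 (grey squares), with SE bars, large subunit left and small subunit right, ordered by the day 3 change, with names for some of the genes described in the text. All day 3 points lie below 0, from −0.82 (Rps26) to −0.24 (Rpl27), and most day 1 points lie around 0.

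Genes with long and short pyrimidine runs in the 30 bases around the RefSeq start had similar medians. A run in this window can end before the start, so the split cannot measure the TOP motif. The median change at day 3 was −0.61 over the 25 genes with a run of at least 8 in any window and −0.63 over the 32 genes with shorter runs. Rps4x, with a longest run of 4, was lower by 0.80, and Rpl35, with a run of 18, by 0.73. Rpl27, with a run of 5, was lower by 0.24. The genes are spread over 19 chromosomes, with the most, 14, on chromosome 7.

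With each library centred on the median of the 82 genes, which removes their common difference, 15 of them were called higher and 17 lower at day 3. On that scale 65.5% of all genes tested were called higher and 5.82% lower. The members therefore did not differ between genotypes by exactly equal amounts. Of the 46 large subunit genes 12 were called relatively higher and 10 lower, and of the 31 small subunit genes 1 was higher and 7 lower. The other 2 relatively higher genes were Rps27rt, a gene copy, at 0.84 and Rps19bp1 at 0.55, neither of which was called without centring. Relative to the median, Rpl27 stood at 0.39, Rpl29 at 0.19, Rpl10 at 0.15 and Rpl11 at 0.13, while Rps26 stood at −0.19, Rpl3 at −0.17, Rps4x at −0.16 and Rpl12 at −0.15.

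**Figure D4:**
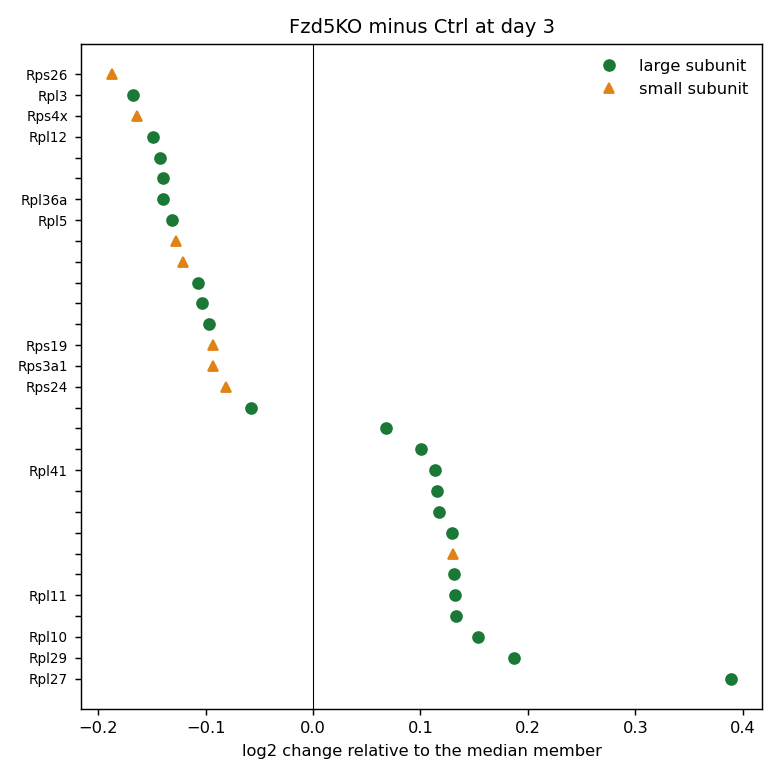
Log2 change at day 3, Fzd5KO minus Ctrl, relative to the median ribosomal protein of each library, for the 30 ribosomal protein genes called on that scale (green circles large subunit, orange triangles small subunit), with names for some of the genes described in the text. Relative changes lie between −0.19 (Rps26) and 0.39 (Rpl27), smaller than the common fall of 0.63.

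At day 1 the ribosomal proteins differed little between the genotypes. Of the 82 genes 5 were called higher and 0 lower in Fzd5KO, against a background of 2.13% higher and 22.8% lower, and at an unadjusted p under 0.05 the counts were 12 higher and 1 lower. The median change was 0.02, against −0.14 for all genes tested, and 82.1% of the genes tested lay below it. The 5 called genes were Rps12 (0.14 ± 0.0320), Rpl36 (0.19 ± 0.0534), Rpl32 (0.14 ± 0.0416), Rpl27 (0.23 ± 0.0676) and Rpl13 (0.18 ± 0.0569). Rps12, a protein of the small subunit, had 1017, 999 and 988 TPM in Fzd5KO day 1 and 906, 897 and 931 TPM in Ctrl day 1, without overlap (limma, adjusted p = 0.012). The count depended on scaling, which sets where 0 lies: it was 19 with quantile normalization, 39 with TPM rescaled to protein-coding genes, 49 without mitochondrial and the 20 most abundant genes, and 65 with median-of-ratios scaling, where the median of all genes tested was 0.00033 and that of the ribosomal proteins 0.19. Without Fzd5KO day 1 replicate 1 or without replicate 3 the count was 1, and without Ctrl day 1 replicate 2 or without replicate 3 it was 2. Over all 14510 genes tested, the calls in either direction numbered 1771 (quantile), 2121 (protein-coding), 1845 (without abundant genes) and 2188 (median-of-ratios). At this day the 5 crypt stem cell markers summed to 84.1 to 88.6 TPM in Fzd5KO and 352 to 369 TPM in Ctrl, the 5 proliferation markers to 217 to 220.4 TPM in Fzd5KO and 254 to 266 TPM in Ctrl, and the 8 enterocyte markers to 18095 to 18602 TPM in Fzd5KO and 16743 to 17577 TPM in Ctrl. Sums were 5449.9 to 5664 TPM in Fzd5KO and 8774 to 9585 TPM in Ctrl for goblet, 12313 to 12792 TPM in Fzd5KO and 13338 to 14086 TPM in Ctrl for Paneth, 126 to 130.3 TPM in Fzd5KO and 171 to 189.8 TPM in Ctrl for enteroendocrine, 14.7 to 19.3 TPM in Fzd5KO and 19.97 to 21.2 TPM in Ctrl for tuft and 99.6 to 117 TPM in Fzd5KO and 156 to 173 TPM in Ctrl for T cell markers. Erythroid markers summed to 36.3 to 42.2 TPM in Fzd5KO and 49.5 to 63.7 TPM in Ctrl, and each further blood or stromal list to at most 8.39 TPM in any day 1 library. Mitochondrial genes took 9.14 to 10.03% of TPM in Fzd5KO and 8.14 to 9.15% in Ctrl, which overlapped. The part of these differences was not tested.

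The genotype effect differed between the days in all 77 ribosomal protein genes. The change at day 3 minus the change at day 1 was called lower in 78 of the 82 genes and higher in 0, against a background of 19.1% lower and 25.3% higher; at an unadjusted p under 0.05 the count higher was also 0. Its median was −0.66, against 0.01 for all genes tested. Among the 77 ribosomal protein genes the largest differences were those of Rpl36 (−0.91 ± 0.0755), Rpl32 (−0.86 ± 0.0588) and Rpl36a (−0.85 ± 0.0522). The smallest among the 77 were those of Rpl10 (−0.43 ± 0.0556) and Rpl27 (−0.47 ± 0.0956). Rpl36 and Rpl32, both of the large subunit, were among the 5 genes that were higher in Fzd5KO at day 1.

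The 2 genotypes moved in opposite directions over time. In Ctrl, 78 of the 82 genes were higher at day 3 than at day 1 and 0 lower, against a background of 25% higher and 11% lower, with a median of 0.36 beside 0.11 for all genes tested. In Fzd5KO, 74 of the 82 were lower at day 3 and 0 higher, against a background of 10.5% lower and 34.4% higher, with a median of −0.31 beside 0.11. At an unadjusted p under 0.05, 0 genes fell in Ctrl and 0 rose in Fzd5KO. These comparisons share libraries with the genotype comparisons, so their values are given side by side and not as further evidence.

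In Ctrl the rise was called in 76 of the 77 ribosomal protein genes. Rpl8, a protein close to the peptidyl transferase centre, had 571, 578 and 572 TPM at Ctrl day 3 and 426, 410 and 410 TPM at Ctrl day 1 (0.46 ± 0.0278), and Rpl3 changed by 0.46. The exception was Rpl27, with 121, 115 and 130 TPM at Ctrl day 3 and 117, 108 and 110 TPM at Ctrl day 1 (0.13 ± 0.0676, limma, adjusted p = 0.17). Its groups overlapped.

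In Fzd5KO the fall over time was called in 74 of the 77 genes. Rpl35, at the exit tunnel, had 137, 135 and 132 TPM at Fzd5KO day 3 and 199, 199 and 189 TPM at Fzd5KO day 1 (−0.53 ± 0.0506). Rps12 changed by −0.50 ± 0.0320. The 3 genes not called were all of the small subunit: Rps27 at −0.11, Rps14 at −0.13 and Rps28 at −0.14, with limma adjusted p between 0.0916 and 0.166. Each of these 3 was called lower with both rescalings of TPM, with median-of-ratios scaling and with quantile normalization.

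Paralogs and fusion genes that the naming rule leaves out went in both directions at day 3: of 8 tested, 2 were higher and 6 lower, with a median of −0.22, beside 24.3% higher, 38.5% lower and a median of −0.14 over all genes tested. With median-of-ratios scaling 3 of the 6 lower calls were lost, those of Fau and Rpl36al among them. Rps4l, a paralog of Rps4x that the annotation lists as a transcribed processed pseudogene, had 13.3, 14.6 and 14.7 TPM in Fzd5KO day 3 and 8.46, 6.30 and 7.99 TPM in Ctrl day 3. It was higher in Fzd5KO than in Ctrl without overlap (0.83 ± 0.101, limma, adjusted p = 2.54e-05), at a level far below that of Rps4x. At day 1 it had 13.2, 15.6 and 13.7 TPM in Fzd5KO and 18.3, 21.5 and 19.3 TPM in Ctrl (−0.45 ± 0.101, limma, adjusted p = 0.00935), a call lost with median-of-ratios scaling, with quantile normalization and without mitochondrial and abundant genes. The difference of its genotype effects was 1.28 ± 0.143, opposite in sign to that of each of the 77 ribosomal protein genes. Its Fzd5KO libraries overlapped between the days, while its Ctrl libraries were all lower at day 3 than at day 1.

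Rps27l, a paralog of Rps27 and a known p53 target, had 187, 192 and 191 TPM in Fzd5KO day 3 and 165, 166 and 163 TPM in Ctrl day 3. It was called higher (0.20 ± 0.0459, limma, adjusted p = 0.00235), but the direction turned to −0.02 with quantile normalization and the call was lost with TPM rescaled to protein-coding genes. Rps27 itself had 451, 473 and 464 TPM in Fzd5KO day 3 and 691, 755 and 651 TPM in Ctrl day 3 (−0.59 ± 0.0494). Rpl22l1, the paralog of Rpl22, changed by −0.39 and Rpl36al, the paralog of Rpl36a, by −0.22 (−0.08 and not called with median-of-ratios scaling), so that Rpl36al stood at 186 TPM and Rpl36a at 169 TPM on average in Fzd5KO day 3, and at 218 TPM and 290 TPM in Ctrl day 3. Whether these pairs differ in their change was not tested.

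**Figure D5:**
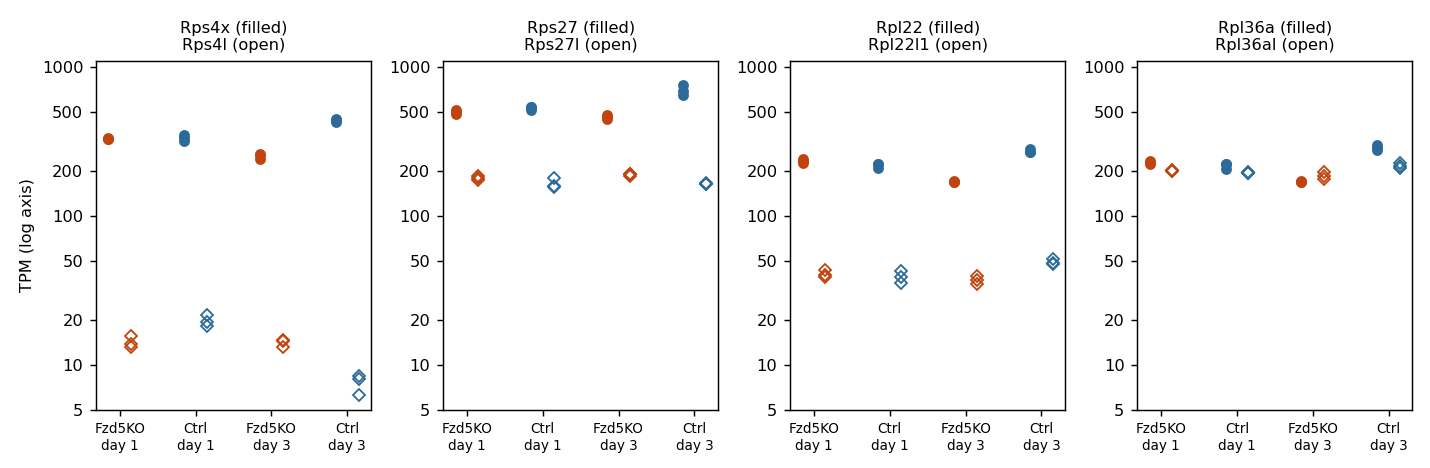
TPM on a log axis in each library of 4 ribosomal protein genes (filled circles) and their paralogs (open diamonds), Fzd5KO in red and Ctrl in blue. At day 3 each of the 4 genes is lower in Fzd5KO than in Ctrl, while the paralogs Rps4l and Rps27l are higher. Rps4l stands at 13.3 to 14.7 TPM in Fzd5KO and 6.30 to 8.46 TPM in Ctrl.

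Among the fusion genes and bound proteins, Fau, a fusion that carries a small subunit protein, changed by −0.19 ± 0.0526, a call lost with median-of-ratios scaling (−0.05). Rack1, a signalling scaffold on the small subunit, changed by −0.68 ± 0.0533. Rpl10l was listed at 0 in every library, and Rpl3l and Rpl39l did not exceed 0.18 TPM in any library.

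The gene copies among the 82 were at most 9.22 TPM. Reads from a ribosomal protein mRNA can match its copies, so the split between them depends on how reads were divided, and their values are uncertain. Rpl37rt stood at 1.08 ± 0.684 TPM in Fzd5KO day 3 and 3.08 ± 0.432 TPM in Ctrl day 3 (SD, n = 3 each; change −1.03 ± 0.261), and Rps3a3 changed by −0.83 ± 0.254, a call lost with quantile normalization (−0.60) and without Ctrl day 3 replicate 2 (−0.66). Rps3a2 and Rps27rt were not called in any of the 5 contrasts without centring. A further 41 rows with -ps names reached the filter, and together they summed to 163 to 190 TPM in Fzd5KO day 3 and 249 to 284 TPM in Ctrl day 3. All genes annotated as pseudogenes, of any family, summed to 66631 to 70855 TPM in Fzd5KO day 3 and 72964 to 83055 TPM in Ctrl day 3. How much of that came from ribosomal protein copies was not tested. Rps19bp1, which binds Rps19 but is no ribosomal protein, changed by −0.08 at day 3 and was not called.

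Other mRNAs of the translation machinery, listed for TOP motifs that were not checked here, followed the same direction at day 3. Of these 23 of 23 were called lower, with a median of −0.49 and a range from −0.75 to −0.16. Over all genes tested 38.5% were called lower and the median was −0.14. How many of these calls hold with other scalings of TPM was not counted. Eef1a1, the factor that brings tRNA to the ribosome, had 2653, 2707 and 2665 TPM in Fzd5KO day 3 and 4112, 4064 and 3941 TPM in Ctrl day 3 (−0.59 ± 0.0329). Eef1b2, its exchange factor, changed by −0.75, Npm1, a nucleolar assembly chaperone, by −0.74 and Eef2, the translocation factor, by −0.36. Rack1 stands in this list too. At day 1 the list had 2 genes higher and 4 lower of 23, with a median of −0.03, beside 2.13% higher, 22.8% lower and a median of −0.14 over all genes tested.

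A list of transcripts that host small nucleolar RNAs had 16 of 17 tested rows lower at day 3, beside the 38.5% called lower among all genes tested. The median was −0.47, with Snhg4 on 2 of the rows. Calls with other scalings of TPM were not counted for this list either. The list was chosen for TOP motifs, but the motif was not checked in these transcripts. Gas5 was lower on both days, with 139, 127.5 and 132 TPM in Fzd5KO day 3 and 229, 198 and 203 TPM in Ctrl day 3 (−0.65 ± 0.0543). At day 1 it had 128, 132 and 138.5 TPM in Fzd5KO and 215, 217 and 213 TPM in Ctrl (−0.69 ± 0.0543), without overlap on either day. The difference of its effects between the days was 0.04 ± 0.0768 and not called.

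Of 18 tested genes that control TOP mRNAs or phosphorylate Rps6, 3 were higher and 5 lower at day 3, with a median of −0.05. Over all genes tested 24.3% were higher and 38.5% lower, so neither count exceeded the background. Larp1, which binds TOP mRNAs, had 36.3, 39.9 and 39.3 TPM in Fzd5KO day 3 and 55.2, 54.2 and 54.8 TPM in Ctrl day 3 (−0.50 ± 0.0457). Rps6kb1, the main S6 kinase, changed by −0.43 ± 0.0722, and Eif4ebp1, an mTOR target that blocks cap-dependent translation, by 0.58 ± 0.121. Mtor itself was not called.

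Of 23 tested chaperones, export and assembly factors of ribosomal proteins, 14 were lower and 4 higher at day 3, with a median of −0.34, beside 38.5% lower, 24.3% higher and a median of −0.14 over all genes tested. Bccip, whose yeast counterpart escorts a large subunit protein, changed by −0.87 ± 0.132, Grwd1, a chaperone of Rpl3, by −0.77 ± 0.0683 and Tsr2, the chaperone of Rps26, by −0.75 ± 0.152. The 4 higher genes were Riok3 (0.54 ± 0.0675), Eif6 (0.47 ± 0.0897), Efl1 (0.34) and Sbds (0.32 ± 0.0641). Eif6 keeps the subunits apart, Efl1 and Sbds release it, and Riok3 is a kinase of small subunit maturation. Eif6 had 181, 192 and 181 TPM in Fzd5KO day 3 and 130, 128.5 and 141 TPM in Ctrl day 3.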

How the data were processed

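Libraries came from a stranded total RNA kit (TruSeq), as the labels' protocols state. Per the submitters' processing notes, bcl2fastq 2.18, STAR 2.7.3a, RSEM (no version) and the build mm10 were used, without role or order. The annotation and the use of strand in counting: not given in the sources used here. A single TPM table of 55421 genes in 12 libraries was deposited. TPM carries no depth, so counting intervals cannot be given, and abundant RNAs can move the values of all others. Gene positions and types are from GENCODE release 21 (GRCm38), and start sequences from RefSeq (GRCm38.p6).

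Values were tested as log2(TPM + 1), which understates the change of low genes, with limma 3.58.1 in R 4.3.3, on 4 group means over 12 libraries (8 residual degrees of freedom, trended prior variance). Tests were 2-sided, on the 14510 genes that reached 1 TPM in 3 libraries, with Benjamini-Hochberg adjustment over all of them in each of 5 contrasts. An exact permutation of 3 against 3 libraries cannot give a p under 0.1 and was not used. The procedure was tested on simulated data. Figures were drawn with matplotlib 3.10.9.

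The genes, lists and tests were chosen with earlier results of these data known. Named genes were up to 15 called genes with the smallest p in each direction and contrast, the 5 highest and 5 lowest in level, the 5 largest changes and 18 chosen ribosomal proteins, plus genes of the other lists. Alternatives were pseudocounts of 0.1 and 5, other filters, quantile and median-of-ratios scaling, a rescaled TPM without mitochondrial and the 20 most abundant genes, centring on the median ribosomal protein, no trend, a replicate block, the compared groups alone and each library left out. A TPM rescaled to protein-coding genes was added after seeing the data. Some results of named genes are not reported here.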

Additional observations from a re-analysis of the deposited data

Results flagged for a closer look

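The difference of the genotype effects between the days was itself tested. It was called, always lower, in 78 of the 82 genes, beside 19.1% lower and 25.3% higher among all genes tested. Among the genes named, it was −0.91 for Rpl36, −0.86 for Rpl32, −0.85 for Rpl36a, −0.47 for Rpl27 and −0.43 for Rpl10, on the log2 scale, day 3 minus day 1. For the paralog Rps4l the difference was 1.28, called in the opposite direction. Rps4l stood at 14.2 TPM in Fzd5KO day 3 and 7.58 TPM in Ctrl day 3, and at 14.2 TPM in Fzd5KO day 1 and 19.7 TPM in Ctrl day 1.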

How the results depend on the processing

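At day 3, all 77 ribosomal protein genes were lower and 78 to 79 of the 82 genes were called lower with any library left out (median −0.66 to −0.62). Sizes moved with scaling; the cause was not tested. Values follow for quantile normalization, median-of-ratios scaling, TPM without mitochondrial and abundant genes, and TPM of protein-coding genes, in that order. Genes called higher at day 1 numbered 19, 65, 49 and 39 (5 as reported), and the median at day 1 was 0.070, 0.19, 0.14 and 0.12. Over all 14510 genes tested, 1771, 2188, 1845 and 2121 were called in either direction at day 1 (3622 as reported). The median at day 3 was −0.69, −0.49, −0.69 and −0.73, and over time in Fzd5KO −0.46, −0.46, −0.51 and −0.50. Over time in Ctrl it was 0.29, 0.23 and 0.33 in all but the last. The median difference of effects was −0.75 (quantile), −0.83 (without abundant genes) and −0.86 (protein-coding). The median of all genes at day 3 moved by 0.11, 0.12, −0.06 and −0.10, and at day 1 by 0.14, 0.14, 0.09 and 0.08. Without mitochondrial and abundant genes the summed TPM averaged 63092 in Fzd5KO day 1, 57365 in Ctrl day 1, 44723 in Fzd5KO day 3 and 72426 in Ctrl day 3. Genes called higher at day 1 numbered 1 with no filter, 2 with no trend, and 1 to 6 with each library left out; lower, 0 to 1. Leaving out each library gave 0 to 1 genes higher for the difference of effects and for time in Fzd5KO, and a median of 0.34 to 0.39 over time in Ctrl.

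Centring on the median ribosomal protein removes the common change by construction. It left 15 genes higher and 17 lower at day 3, and 4 higher and 3 lower at day 1. For the difference of effects 12 were higher and 14 lower. Over time 10 were higher and 3 lower in Ctrl, and 20 higher and 12 lower in Fzd5KO. The medians were 0.0019, −0.0023, −0.0025, 0.023 and 0.012, in that order. At day 3 centring turned Rpl27 to 0.39, Rpl29 to 0.19, Rpl10 to 0.15, Rpl11 to 0.13, Rpl41 to 0.11 and Rps14 to 0.11. It turned Rplp2 to 0.050, Rps2 to 0.047, Rps3 to 0.045, Rps27 to 0.043, Rplp0 to 0.036 and Rpsa to 0.0017. For the difference of effects it turned Rpl10 to 0.23 and Rpl27 to 0.19, over time in Fzd5KO Rps27 to 0.22, Rps14 to 0.19 and Rps28 to 0.18, and over time in Ctrl Rpl27 to −0.21. Rpl27 over time in Ctrl was also −0.0036 with median-of-ratios scaling, and Rps27l at day 3 −0.022 with quantile normalization.

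Libraries with the same replicate number did not deviate together: their correlations lay between −0.069 and 0.093, and those of different numbers between −0.092 and 0.071. With the replicate block, 4 genes were called higher at day 1 and 79 lower at day 3. Precision is limited by 3 libraries a group and by unknown depth.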
